A study of Mus musculus with 12 samples.

Results

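Glycolysis and hypoxia genes are described here: 33 mouse genes for glucose uptake, glycolysis, the handling of pyruvate and lactate, and other targets of the hypoxia-inducible factors, all chosen by name. All 33 had probes on the array, 57 probes of the 55681 that were not controls, and 53 of these probes were kept after a filter on dim signal. One value per gene could be tested for 32 genes among 23924 features. The exception was Egln3, whose 2 probes were well above background on 0 of the 12 arrays. The cells were RAW264.7, an established mouse macrophage line obtained from ATCC, in 4 groups of 3 one-colour arrays. The first group received an siRNA to the long intergenic RNA lincRNA-Tnfaip3 for 24 h and then lipopolysaccharide (LPS, from E. coli, 1 µg/ml) for 4 h. The second received that siRNA and no LPS, the third a scrambled control siRNA and then LPS, and the fourth the scrambled control siRNA and no LPS. Every group was therefore transfected, no untransfected cells were compared, and all groups came from 1 line.

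Glycolysis splits glucose to pyruvate, and pyruvate is either oxidised in mitochondria or reduced to lactate and exported. Hypoxia-inducible factors are transcription factors made of an oxygen-regulated alpha subunit, such as Hif1a, and a stable partner; prolyl hydroxylases mark the alpha subunit for destruction when oxygen is present. In macrophages, LPS is known to shift metabolism towards glycolysis and to stabilise HIF-1 alpha, and the alpha subunit is controlled in large part through the stability of the protein.

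Values are relative signals, each probe's processed signal divided by the 75th percentile of its own array, so they set 1 probe across arrays and not 1 gene beside another. The 75th percentile was 268 to 410 intensity units, 0 spots were saturated, and replicate arrays of a group correlated at 0.974 to 0.991 over features. LPS acted in these cells: Il6, a cytokine gene, rose by 6.01 log2 units with the lincRNA siRNA and by 6.83 with the control siRNA. The siRNA's target RNA was not analysed here, so its knockdown was not checked. Of 10 macrophage markers, 9 were well above background on all arrays, with summed relative signals of 632 to 713, 560 to 635, 528 to 596 and 428 to 518 in the 4 groups in the order above. Of 9 markers of other cells, Cd3e, Cd79a, Pecam1 and Siglech were also above background on all arrays and Epcam on none. Those 4 genes summed to 128 to 155, 147 to 166, 143 to 151 and 53.3 to 151, and the part of either list in the results was not tested. The arrays lay on 3 slides: control-siRNA arrays 1 and 2 alone on slide 1, lincRNA-siRNA arrays with LPS 2 and 3 alone on slide 3, and the other 8 on slide 2. Slide 2 thus holds 1 lincRNA-siRNA array with LPS and 1 control-siRNA array without LPS. Every change given within slide 2 therefore rests in part on a single array. Slide 1 arrays had 27219 and 29478 probes well above background, against 32735 to 36406 on the others. In total RNA from whole cultures, fewer cells carrying a transcript and less of it per cell cannot be told apart. Whether replicates came from separate cultures is not stated in the labels, and every p-value here rests on the scatter among these 12 arrays alone.

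After 4 h of LPS, no glycolysis or hypoxia gene rose past the test and 3 fell: Ankrd37, Ddit4 and Pfkfb4. With both siRNAs averaged, Ankrd37 fell by 0.88 log2 units (1.84-fold lower), Ddit4 by 0.83 (1.78-fold lower) and Pfkfb4 by 0.29 (1.22-fold lower). With slide as a term in the fit all 3 calls were lost (adjusted p = 0.152, 0.170 and 0.170), with the direction kept. Slides 1 and 3 each hold arrays of 1 group only, so that fit takes its group differences from slide 2. A fit to slide 2 alone, which kept the direction too, is therefore not a separate check. Fewer arrays inform the change in both, and why the calls were lost was not tested. By their brightest probes the 29 other genes, including every enzyme of the pathway from hexokinase to lactate dehydrogenase, did not pass. A dimmer probe of Bnip3 did, as given below. Among all features, 4.17% were called higher and 4.12% lower in this comparison. The share of the set was not tested against that background. The median change of the 32 genes was -0.01, against 0.02 for all features. The lincRNA siRNA changed none of the 32 genes past the test, with LPS or without it. No feature of the array passed limma's test there either, although 1118 features with LPS (4.67%) and 4368 without it (18.3%) had an unadjusted p under 0.05.

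Promoters of the 3 genes that fell with LPS, and of Ldha for comparison, are printed because the hypoxia-inducible factors bind a short core, ACGTG or GCGTG, on either strand. Each sequence runs from 250 bases before to 50 bases after the start given by RefSeq for GRCm38.p6 and is printed 5′ to 3′ along the gene. Capitals mark the core motifs, with the reverse complements CACGT and CACGC marked as well and overlapping matches run together. The windows are chr8:45999801-46000100 on the minus strand for Ankrd37, chr10:59951721-59952020 on the minus strand for Ddit4, chr9:108991652-108991951 on the plus strand for Pfkfb4 and chr7:46845554-46845853 on the plus strand for Ldha.
Ankrd37: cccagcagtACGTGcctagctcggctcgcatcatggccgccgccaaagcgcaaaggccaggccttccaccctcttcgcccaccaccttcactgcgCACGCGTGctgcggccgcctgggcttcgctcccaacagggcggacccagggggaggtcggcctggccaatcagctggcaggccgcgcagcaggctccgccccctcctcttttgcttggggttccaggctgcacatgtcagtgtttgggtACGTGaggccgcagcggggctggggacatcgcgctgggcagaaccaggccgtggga
Ddit4: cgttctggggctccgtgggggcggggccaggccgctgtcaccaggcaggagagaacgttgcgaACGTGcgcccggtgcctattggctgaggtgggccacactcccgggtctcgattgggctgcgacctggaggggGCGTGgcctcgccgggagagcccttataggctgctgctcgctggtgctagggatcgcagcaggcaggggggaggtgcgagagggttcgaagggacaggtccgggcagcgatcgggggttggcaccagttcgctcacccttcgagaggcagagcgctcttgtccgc
Pfkfb4: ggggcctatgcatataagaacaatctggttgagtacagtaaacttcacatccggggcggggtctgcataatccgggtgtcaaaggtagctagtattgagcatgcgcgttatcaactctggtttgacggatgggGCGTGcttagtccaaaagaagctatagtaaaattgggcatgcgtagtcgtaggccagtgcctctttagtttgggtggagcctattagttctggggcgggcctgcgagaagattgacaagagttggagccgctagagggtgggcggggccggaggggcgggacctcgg
Ldha: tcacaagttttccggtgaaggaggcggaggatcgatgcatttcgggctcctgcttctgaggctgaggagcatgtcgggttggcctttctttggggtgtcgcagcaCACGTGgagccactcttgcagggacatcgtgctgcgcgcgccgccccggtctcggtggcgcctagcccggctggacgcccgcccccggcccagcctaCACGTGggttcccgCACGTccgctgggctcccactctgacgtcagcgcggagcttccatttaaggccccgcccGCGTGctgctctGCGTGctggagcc
The Ankrd37 window holds 4 matches, that of Ddit4 2, that of Pfkfb4 1 and that of Ldha 7. Overlapping matches on opposite strands are counted separately, so the 7 of Ldha lie in 5 stretches and the 4 of Ankrd37 in 3. Ldha has another window, not printed, with 2 matches. A link between matches and the LPS change was not tested. The RefSeq promoter table used here matched 32 of the 33 genes, all but Slc2a3. At least 1 promoter held a core on either strand in 29 of the 32 genes (90.6%), against 46.7% of all 27025 genes with a promoter. Counted by window, 37 of 46 held a core (80.4%), against 43.8% of 32851. Some of these genes were chosen as targets of the hypoxia-inducible factors, so these shares are not independent of the choice. ACGTG was present in 23 of them (71.9%), against 21.8% of all genes, and GCGTG in 21 (65.6%), against 35.2% of all genes. The 3 genes without a match in any window were Gpi1, Tpi1 and Eno2. The windows of the set were richer in G and C, with a median of 62.2% against 52.7% over all promoters, and the 32 genes had 46 windows. Between 55% and 65% G and C, 13 of the set's 18 windows held a core (72.2%), against 58.4% of 8444 windows. A match describes letters in the window and is not a binding site.

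**Figure D1:**
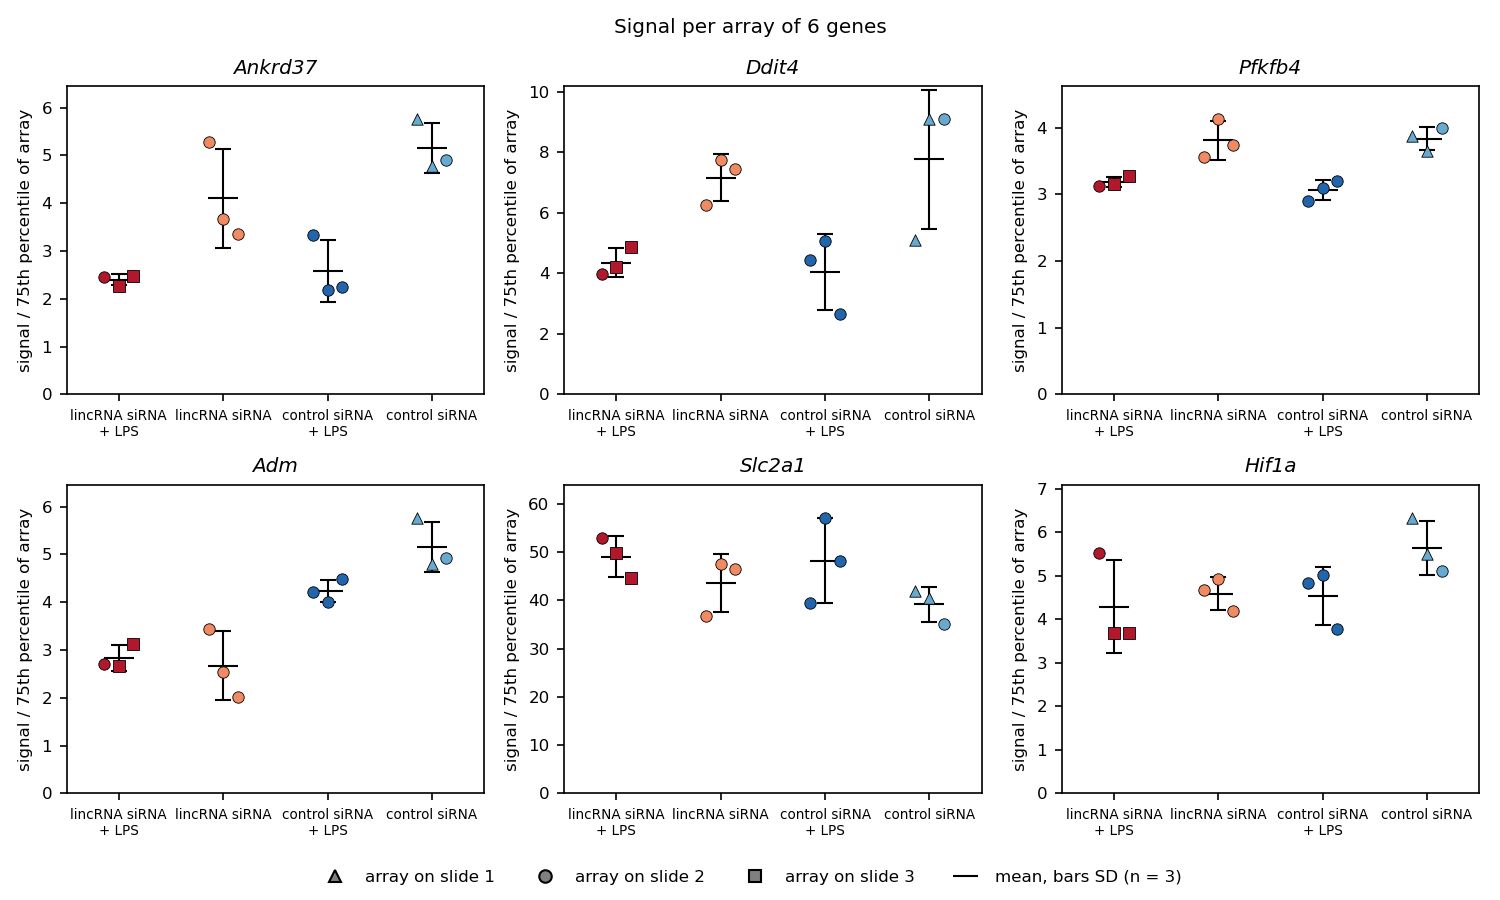
Relative signal (signal divided by the 75th percentile of the array, linear axis from 0) of Ankrd37, Ddit4, Pfkfb4, Adm, Slc2a1 and Hif1a on each of the 12 arrays; horizontal ticks are means and bars SD of 3 arrays, and the marker shape gives the slide. Every LPS array of Ankrd37, Ddit4 and Pfkfb4 lies below every array without LPS of the same siRNA, and every lincRNA-siRNA array of Adm lies below every control-siRNA array.

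Oxygen sensing was represented by Hif1a, Egln1 and Egln3, the last being undetected. Hif1a, the oxygen-regulated alpha subunit (probe at chr12:75047269-75047329, mm9), had relative signals of 5.51, 3.68 and 3.68 in lincRNA-siRNA cells with LPS, against 4.67, 4.92 and 4.18 in lincRNA-siRNA cells. In control-siRNA cells it was at 4.83, 5.02 and 3.78 with LPS, against 6.33, 5.49 and 5.11 without. The LPS groups overlapped those without LPS under the lincRNA siRNA but lay below them under the control siRNA. The averaged change was -0.22 ± 0.13 (SE; 95% interval -0.51 to 0.07, adjusted p = 0.314). Within slide 2, with single arrays at 5.51 for lincRNA-siRNA cells with LPS and 5.11 for control-siRNA cells, it was 0.04. Egln1, a prolyl hydroxylase that marks HIF alpha subunits, was near the detection limit, well above background on 1, 2, 3 and 1 of 3 arrays in the lincRNA-siRNA with LPS, lincRNA-siRNA, control-siRNA with LPS and control-siRNA groups. Only the control-siRNA group with LPS let Egln1 pass the filter on dim signal. Its averaged LPS change was 0.08 ± 0.22 (adjusted p = 0.856).

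Glucose uptake was represented by Slc2a1, the widely expressed basal glucose transporter, and Slc2a3, a high-affinity one. Slc2a1 (chr4:118809864-118809923) was at 52.8, 49.9 and 44.5 in lincRNA-siRNA cells with LPS, against 36.7, 47.5 and 46.6 without LPS. With the control siRNA it was at 39.5, 57.1 and 48.1 with LPS, against 41.9, 40.5 and 35.1 without LPS. The groups overlapped under both siRNAs. The averaged change was 0.23 ± 0.11 (95% interval -0.02 to 0.48, adjusted p = 0.235), positive under each siRNA (0.18 with the lincRNA siRNA and 0.29 with the control siRNA). Within slide 2, with single arrays at 52.8 for lincRNA-siRNA cells with LPS and 35.1 for control-siRNA cells, it was 0.36. Slc2a3 stayed between 6.15 and 8.33 on all arrays, with an averaged change of -0.05 (adjusted p = 0.774).

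None of the 9 genes of upper glycolysis, from hexokinase to aldolase, passed the LPS test; 5 changes were positive and 4 negative, with a median of 0.00. Hk2, the inducible hexokinase that commits glucose to the pathway (chr6:82675056-82675115), was at 17.7, 14.8 and 12.4 in lincRNA-siRNA cells with LPS, against 13.9, 14.6 and 14.9 without. The control-siRNA cells had 12.7, 16.4 and 14.9 with LPS, against 13.4, 13.9 and 12.9 without. These groups overlapped, and the averaged change was 0.08 ± 0.10 (95% interval -0.15 to 0.30, adjusted p = 0.658). Hk3, another hexokinase, ranged from 6.98 to 11.9 and Gpi1, which isomerises glucose 6-phosphate, from 270.3 to 404, with averaged changes of 0.16 and 0.00. The phosphofructokinase subunit genes Pfkl (10.1 to 13.8), Pfkm (4.69 to 8.08) and Pfkp (8.25 to 12.7) had averaged changes of -0.01, -0.23 and 0.09. The aldolases Aldoa (858 to 1135) and Aldoc (71.2 to 169.5) had averaged changes of -0.06 and -0.35, and Aldoc's spread was wide, its standard error being 0.20. Hk1 had the highest averaged change of the set, 0.61 ± 0.27 (adjusted p = 0.198), which is taken up with the slides.

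Of the bifunctional enzymes that make and degrade fructose 2,6-bisphosphate, the activator of phosphofructokinase, Pfkfb4 fell and Pfkfb3 did not pass. Pfkfb4 (chr9:108934652-108934711) was at 3.13, 3.15 and 3.27 in lincRNA-siRNA cells with LPS, against 3.57, 4.13 and 3.74 without LPS. In control-siRNA cells it was at 2.89, 3.10 and 3.20 with LPS, against 3.87, 3.64 and 3.99 without LPS. The groups did not overlap under either siRNA. Its averaged change of -0.29 ± 0.06 (adjusted p = 0.0232) was small, and neither siRNA alone passed (-0.26, adjusted p = 0.327, with the lincRNA siRNA, and -0.32, adjusted p = 0.0754, with the control siRNA). The averaged call was lost without control-siRNA array 1, control-siRNA array 2 with LPS, lincRNA-siRNA array 2 or lincRNA-siRNA array 2 with LPS (adjusted p = 0.0533 to 0.0588). Pfkfb3, which favours synthesis of the activator (chr2:11393453-11393512), was at 5.59, 5.62 and 5.46 in lincRNA-siRNA cells with LPS, against 8.03, 5.50 and 5.82 without. The control-siRNA cells had 7.36, 5.997 and 6.43 with LPS, against 8.11, 6.62 and 7.92 without. The groups overlapped under both siRNAs, and the averaged change was -0.19 ± 0.11 (95% interval -0.44 to 0.05, adjusted p = 0.299).

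None of the 7 genes of lower glycolysis passed, with averaged LPS changes from -0.05 to 0.32 and a median of 0.02. Tpi1, triose phosphate isomerase, ranged from 205.5 to 305 and Pgk1, phosphoglycerate kinase, from 331 to 424, with averaged changes of -0.05 and -0.05. Pgam1, phosphoglycerate mutase, ranged from 284 to 366 and had the smallest standard error of the set, its averaged change being -0.01 ± 0.06. The enolases Eno1 (284 to 658) and Eno2 (4.02 to 6.62) changed by 0.32 ± 0.14 (adjusted p = 0.214) and 0.18 ± 0.09 (adjusted p = 0.257). Pyruvate kinase, listed as Pkm2 and now named Pkm, ranged from 287 to 404 with a change of 0.02. Gapdh, glyceraldehyde 3-phosphate dehydrogenase, ranged from 408 to 1065 with a change of 0.27 ± 0.19 (adjusted p = 0.399). The array annotation places the Pgk1 probe on chromosome 3, whereas the gene is on X. It places 2 of the 8 Gapdh probes on chromosomes 7 and 8, whereas the gene is on 6. The brightest Gapdh probe, used for the gene throughout, is the one on chromosome 7. Gapdh probes placed on chromosome 6 had averaged changes of 0.04 to 0.17. Near-identical copies may share the probes placed on other chromosomes, so the values of Pgk1 and Gapdh are uncertain.

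Of the 4 genes that decide the fate of pyruvate, none passed. Ldha, which reduces pyruvate to lactate (chr7:54110937-54110996), was at 507, 700.2 and 716 in lincRNA-siRNA cells with LPS, against 616, 587 and 669 without. With the control siRNA it was at 547, 563 and 570.2 with LPS, against 288, 321 and 573 without, so only the 2 slide 1 arrays stood low. The averaged change was 0.30 ± 0.17 (95% interval -0.07 to 0.67, adjusted p = 0.295). Slc16a3, the lactate exporter of glycolytic cells (chr11:120820023-120820082), was at 159.8, 153 and 179 in lincRNA-siRNA cells with LPS, against 118, 171 and 157 without. The control-siRNA cells had 129.9, 136 and 148 with LPS, against 119, 122 and 125 without. The groups with and without LPS overlapped under the lincRNA siRNA and lay apart under the control siRNA. The averaged change was 0.17 ± 0.10 (95% interval -0.05 to 0.39, adjusted p = 0.322). Slc16a1, a second monocarboxylate transporter, ranged from 0.184 to 0.510 with a change of 0.33 ± 0.19 (adjusted p = 0.305). Pdk1, a kinase that restrains pyruvate dehydrogenase (chr2:71739688-71739747), was at 2.97, 2.63 and 2.95 in lincRNA-siRNA cells with LPS, against 3.88, 3.35 and 2.99 without. In control-siRNA cells it was at 3.70, 3.23 and 2.58 with LPS, against 3.67, 3.51 and 3.67 without. Pdk1 groups did not overlap under the lincRNA siRNA and overlapped under the control siRNA, with an averaged change of -0.23 ± 0.10 (95% interval -0.46 to 0.00, adjusted p = 0.205).

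Of the 6 other targets of the hypoxia-inducible factors, 2 fell with LPS and 4 did not pass. Ankrd37, which encodes a small ankyrin-repeat protein (chr8:47082404-47082463), was at 2.46, 2.27 and 2.47 in lincRNA-siRNA cells with LPS, against 5.28, 3.66 and 3.35 without LPS. With the control siRNA it was at 3.33, 2.18 and 2.24 with LPS, against 5.76, 4.79 and 4.91 without LPS. All 6 arrays with LPS lay below all 6 without, the nearest being control-siRNA array 1 with LPS, at 3.33, and the lowest lincRNA-siRNA array without LPS, at 3.35. The change was -0.74 ± 0.20 with the lincRNA siRNA (adjusted p = 0.147), -1.02 ± 0.20 with the control siRNA (adjusted p = 0.0202) and -0.88 ± 0.14 averaged (adjusted p = 0.00461). Ankrd37 was the 1 gene of 32 called in control-siRNA cells, where 3.24% of features were called higher and 2.03% lower. The control-siRNA call was lost when control-siRNA array 1 or 2, or control-siRNA array 2 or 3 with LPS, was left out (adjusted p = 0.0600 to 0.0945). In lincRNA-siRNA cells 0 of 32 were called, against 1.48% of features higher and 0.339% lower.

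Ddit4, an inhibitor of the growth kinase complex mTORC1 that is induced by hypoxia and other stresses (chr10:59412486-59412545), was at 3.99, 4.20 and 4.89 in lincRNA-siRNA cells with LPS, against 6.27, 7.75 and 7.47 without LPS. The control-siRNA cells had 4.43, 5.06 and 2.66 with LPS, against 5.11, 9.10 and 9.10 without LPS. The groups did not overlap, although control-siRNA array 1, at 5.11, was next to the LPS arrays. The changes were -0.72 ± 0.28 with the lincRNA siRNA (adjusted p = 0.387), -0.94 ± 0.28 with the control siRNA (adjusted p = 0.0834) and -0.83 ± 0.20 averaged (adjusted p = 0.0290). Leaving out 1 array lost the averaged Ddit4 call in 6 of 12 cases: control-siRNA array 2, control-siRNA array 3 with LPS, lincRNA-siRNA arrays 2 and 3, and lincRNA-siRNA arrays 1 and 2 with LPS (adjusted p = 0.0521 to 0.0759). Groups lay apart under both siRNAs for Ankrd37, Ddit4 and Pfkfb4 alone among the 32, all lower with LPS, against 4.51% of features apart and lower and 4.43% apart and higher.

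Vegfa, the endothelial growth factor and a classic hypoxia target (chr17:46154387-46154446), was at 6.17, 6.21 and 6.71 in lincRNA-siRNA cells with LPS, against 6.11, 6.37 and 5.65 without. In control-siRNA cells it was at 5.81, 6.38 and 5.63 with LPS, against 6.93, 6.22 and 6.11 without. These groups overlapped, and its averaged change of -0.02 ± 0.07 had a 95% interval of -0.17 to 0.14 (adjusted p = 0.895). Bnip3, a mitochondrial protein that promotes mitophagy, ranged from 64.3 to 107.8 with a change of -0.24 ± 0.09 (adjusted p = 0.125). All 3 of its probes were negative, from -0.39 to -0.19. With every kept probe fitted by limma as its own feature, its dimmest probe passed (-0.39, adjusted p = 0.0321). With the mean of the 3 in place of the brightest, an alternative chosen after seeing the data, it passed at -0.27 (adjusted p = 0.0439). That Bnip3 did not pass thus depends on the use of the brightest probe. P4ha1, a subunit of the collagen prolyl hydroxylase, ranged from 1.04 to 1.62 with a change of 0.20 ± 0.09 (adjusted p = 0.209). Adm, the vasodilator peptide adrenomedullin, changed by -0.08 ± 0.13 (adjusted p = 0.715).

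**Figure D2:**
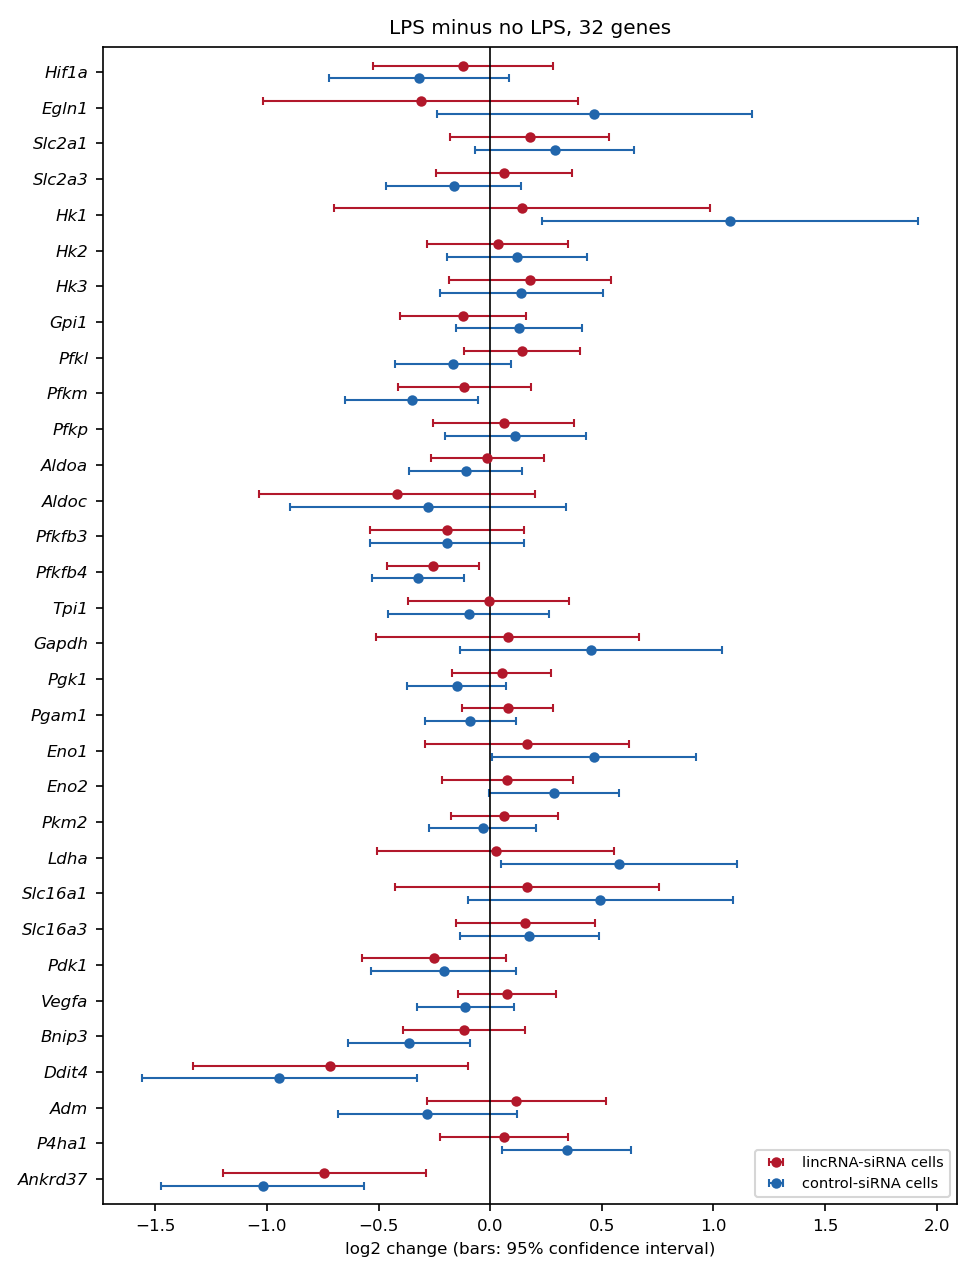
Log2 change with LPS (LPS minus no LPS) of the 32 tested genes, ordered by role from oxygen sensing at the top, with 95% confidence intervals from the fit to 12 arrays; for each gene the lincRNA-siRNA value is above the control-siRNA value. Ankrd37 and Ddit4 lie furthest to the left under both siRNAs, and Hk1 in control-siRNA cells, at 1.07, furthest to the right.

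The intervals give the scatter among arrays in a fit without slide, and they do not cover differences between slides. For Hk1 in control-siRNA cells the interval was 0.23 to 1.92, whereas the change within slide 2 was -0.02. For the averaged LPS change, 29 of the 32 intervals lay within 1 log2 unit of 0 and 24 lay within a change of 1.5-fold, with standard errors between 0.06 and 0.27. At an unadjusted p under 0.05 there were 7 genes of the 32 for the averaged change, against 24.3% of features. The same count was 3 in lincRNA-siRNA cells, against 10.1% of features, and 9 in control-siRNA cells, against 24.4%, so these counts lay near the background. A test of the difference between the siRNAs in their LPS response called none of the 32 genes (0% of features, with 906 features, or 3.79%, at an unadjusted p under 0.05 and 0 of the 32). For the 3 genes that fell it was 0.28 ± 0.29 for Ankrd37, 0.23 ± 0.39 for Ddit4 and 0.07 ± 0.13 for Pfkfb4. The median of that difference was 0.02 in the set and -0.03 over all features.

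The lincRNA siRNA was compared with the control siRNA at each LPS state, and 0 of the 32 genes passed by limma's test, against 0% of features in each. At an unadjusted p under 0.05 there were 3 genes with LPS, against 4.67% of features, and 10 without, against 18.3%. The 3 include Egln1, which passed the filter on dim signal through control-siRNA cells with LPS alone. Adm had the clearest separation. It was at 2.70, 2.66 and 3.13 in lincRNA-siRNA cells with LPS, against 4.22, 4.00 and 4.48 in control-siRNA cells with LPS. Without LPS it was at 3.44, 2.55 and 2.01 in lincRNA-siRNA cells, against 5.76, 4.79 and 4.91 in control-siRNA cells. The changes were -0.58 ± 0.18 with LPS (95% interval -0.98 to -0.18, adjusted p = 0.977) and -0.98 ± 0.18 without LPS (95% interval -1.38 to -0.58, adjusted p = 0.176), so neither passed.

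Within slide 2, the Adm change with LPS was -0.65, from lincRNA-siRNA array 1 with LPS alone. Without LPS it was -0.92, against control-siRNA array 3 alone. Adm passed without LPS when control-siRNA array 3 was left out (adjusted p = 0.0203) or when lincRNA-siRNA array 1 was left out (adjusted p = 0.0142). Its 3 control-siRNA values print the same as those of Ankrd37, but the probes are separate spots, with raw mean signals of 1832, 1595 and 1874 for Adm and 1826, 1630 and 2027 for Ankrd37. Pfkm, the muscle-type phosphofructokinase, was the other gene whose groups lay apart in both comparisons. It was at 4.69, 4.76 and 5.07 in lincRNA-siRNA cells with LPS, against 6.44, 5.36 and 5.18 in control-siRNA cells with LPS. Without LPS it was at 6.12, 4.80 and 4.89 in lincRNA-siRNA cells, against 8.08, 6.88 and 6.69 in control-siRNA cells. Its changes, -0.22 ± 0.13 (adjusted p = 0.977) and -0.46 ± 0.13 (adjusted p = 0.211), did not pass. These 2 of 32 genes compare with 1.05% of features apart and lower in both comparisons and 2.49% apart and higher.

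No gene of oxygen sensing, uptake or pyruvate fate passed between siRNAs, but the sizes varied. Egln1, close to the detection limit, differed by -0.78 ± 0.32 with LPS (adjusted p = 0.977) and by -0.00 without LPS. Egln1 was kept through its signal in control-siRNA cells with LPS alone, the group subtracted in the first difference. That filter favours a negative value there, so nothing is drawn from it. Ldha differed by 0.18 ± 0.24 with LPS (adjusted p = 0.985) and by 0.73 ± 0.24 without LPS (adjusted p = 0.219), where the 2 low control-siRNA arrays were those of slide 1. Slc16a1 differed by 0.09 ± 0.26 with LPS and by 0.42 ± 0.26 without LPS (adjusted p = 0.406). With and without LPS, Hif1a differed by -0.10 ± 0.18 (adjusted p = 0.988) and -0.30 ± 0.18 (adjusted p = 0.388). Slc2a1 differed by 0.04 ± 0.16 with LPS (adjusted p = 0.996) and by 0.15 ± 0.16 without LPS (adjusted p = 0.626). None of these genes separated the groups in both LPS states. Slc16a3 differed by 0.25 ± 0.14 with LPS (adjusted p = 0.977) and by 0.27 ± 0.14 without LPS (adjusted p = 0.324), and its groups lay apart with LPS and overlapped without. For Hk2 the differences were 0.02 and 0.11, for Pfkfb3 -0.24 and -0.24, for Pdk1 -0.14 and -0.10, and for Vegfa 0.10 and -0.09. The genes of lower glycolysis differed by 0.04 to 0.26 with LPS, and none passed. Over the 23 alternatives described below, Tpi1, Gapdh, Pgk1, Pgam1 and Pkm2 kept their sign in 23, Eno1 in 21 and Eno2 in 19. The alternatives reuse the same arrays, so a kept sign is not independent support for a direction. Over the 32 genes the median difference was 0.06 with LPS and 0.02 without LPS, against 0.02 and 0.06 for all features. Intervals lay within 1 log2 unit of 0 for 30 genes with LPS and for 27 without LPS. The genes that fell with LPS had siRNA differences without LPS of -0.35 ± 0.20 for Ankrd37 (adjusted p = 0.360), -0.07 ± 0.28 for Ddit4 (adjusted p = 0.909) and -0.01 ± 0.09 for Pfkfb4 (adjusted p = 0.960).

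**Figure D3:**
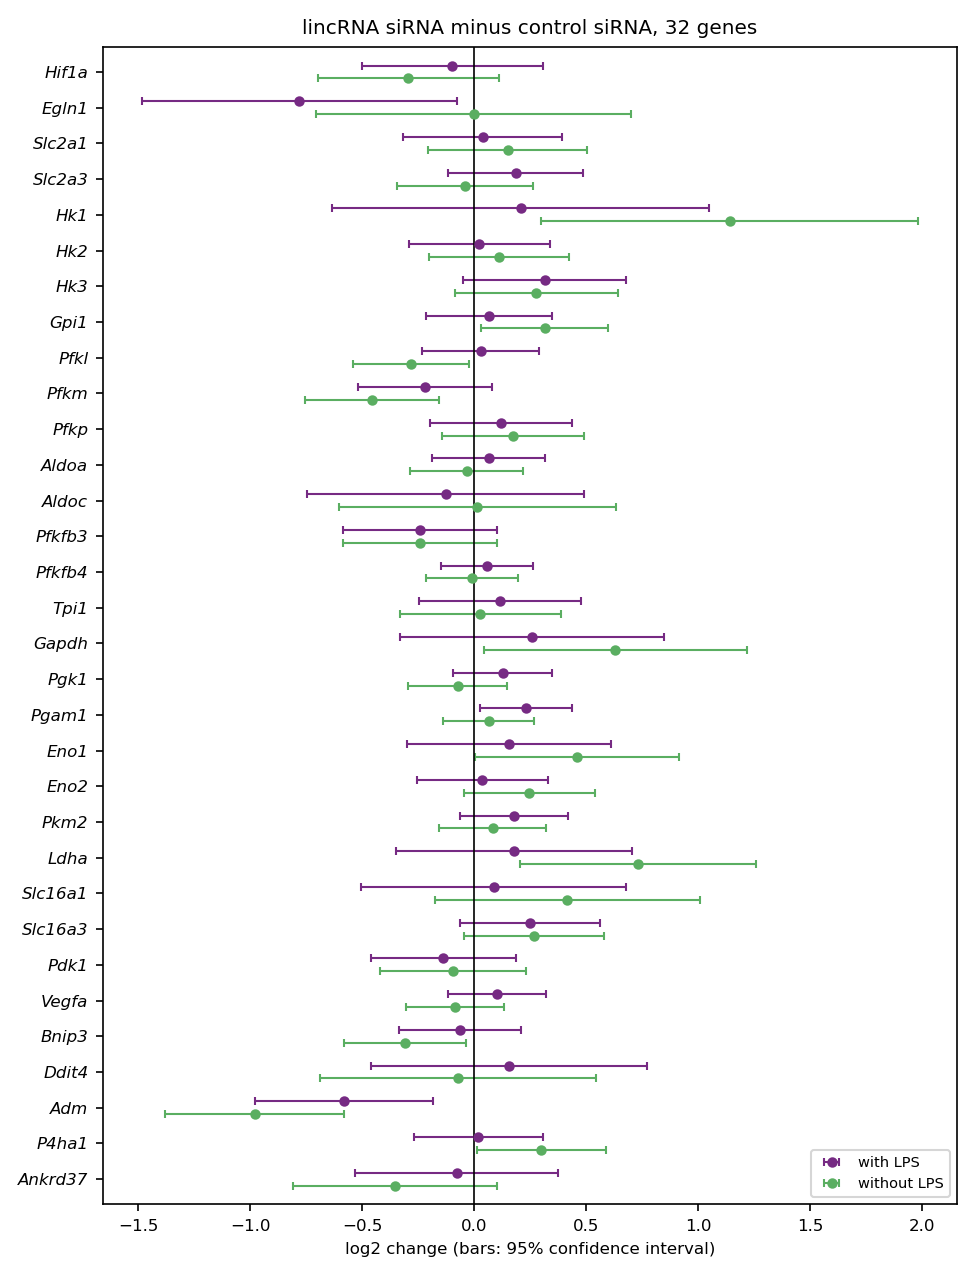
Log2 difference between siRNAs (lincRNA siRNA minus control siRNA) of the 32 genes with 95% confidence intervals from the fit to 12 arrays; for each gene the value with LPS is above the value without LPS. Adm lies left of 0 in both, at -0.58 and -0.98, and Hk1 without LPS, at 1.14, furthest to the right.

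The brightest probes of several glycolytic genes differed between slides within the control-siRNA group without LPS. For Hk1, which encodes a widely expressed hexokinase, the brightest probe (chr10:61731230-61731288) was at 76.2 and 94.8 on control-siRNA arrays 1 and 2, on slide 1, and at 264.8 on control-siRNA array 3, on slide 2. On the other 9 arrays it was at 242 to 355. Its changes against the control-siRNA arrays were 1.07 ± 0.38 for LPS (adjusted p = 0.132) and 1.14 ± 0.38 for the lincRNA siRNA (adjusted p = 0.219). Within slide 2 they were -0.02 and 0.05, against control-siRNA array 3 alone. The other 2 Hk1 probes, at 59.7, 55.5 and 46.2 and at 2.22, 1.92 and 2.27 on the 3 control-siRNA arrays, lacked this gap and their LPS changes in control-siRNA cells were -0.21 and -0.22.

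The same split appeared for the brightest probes of Ldha (288 and 321 on slide 1 against 573 on slide 2), Gapdh (408 and 483 against 828) and Eno1 (284 and 330 against 508). Within slide 2 the LPS changes in control-siRNA cells, against control-siRNA array 3 alone, were -0.03 for Ldha, -0.15 for Gapdh and -0.02 for Eno1. Control-siRNA array 3 exceeded the mean of arrays 1 and 2 by over 1 log2 unit in 1 of the 32 genes (Hk1) and in 2539 of the 23924 features. The dimmer Ldha probes differed by 0.10 and 0.24, against 0.91 for the brightest. Gapdh probes placed on chromosome 6 differed by -0.69 to 0.32, against 0.90 for the brightest, which is placed on chromosome 7. Without control-siRNA array 3, which left only slide 1 arrays in that group, 6 genes passed for LPS in control-siRNA cells. Of these Hk1, Ldha, Gapdh, Eno1 and P4ha1 were higher, against 12% of features, and Ankrd37 was lower, against 4.16%. The same omission called 6 genes for the lincRNA siRNA without LPS (Hk1, Ldha, Gapdh, Eno1 and Gpi1 higher, against 8.47% of features, and Adm lower, against 1.37%). It also called Hk1 for the difference between LPS responses, against 1.32% of features in that direction. With slide as a term in the fit, which takes its group differences from slide 2, 0 of the 32 genes passed in any comparison. The lincRNA-siRNA group with LPS spans slides as well, array 1 on slide 2 and arrays 2 and 3 on slide 3. There Ldha was at 507 against 700.2 and 716, and Hif1a at 5.51 against 3.68 and 3.68. Gapdh, at 839 against 798 and 1065, did not split. Slide and group cannot be told apart for the arrays of slides 1 and 3.

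The 3 genes that fell kept their direction on slide 2. That slide holds 1 lincRNA-siRNA array with LPS against 3 without, and 3 control-siRNA arrays with LPS against 1 without. Each group mean has equal weight, so the averaged LPS change there rests in large part on single arrays. It was -0.83 for Ankrd37, -1.03 for Ddit4 and -0.33 for Pfkfb4. With slide as a term in the fit to all arrays, the adjusted p were 0.152, 0.170 and 0.170. That fit also takes its group differences from slide 2, so it is not a second check.

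**Figure D4:**
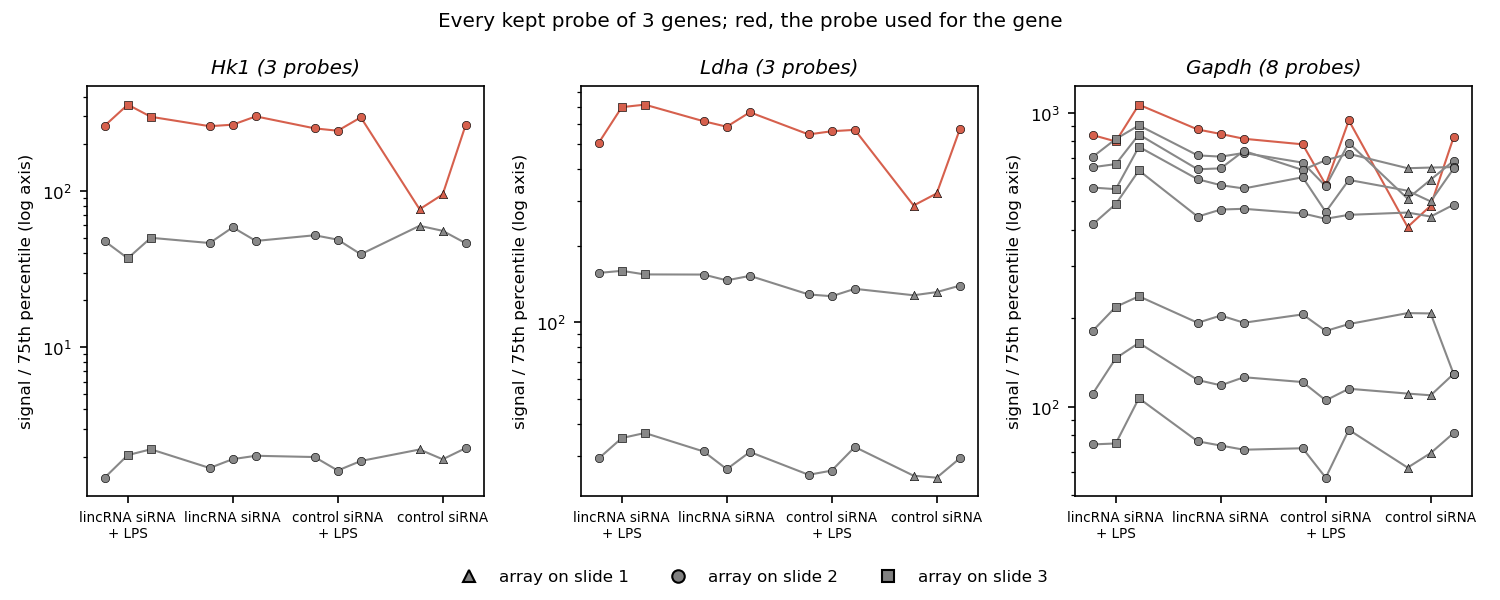
Relative signal (log axis) of all 3 Hk1, 3 Ldha and 8 Gapdh probes that passed the filter on dim signal, over the 12 arrays in group order; the red line is the brightest probe, used for the gene, and the marker shape gives the slide. The red points of slide 1 drop for Hk1, to 76.2 and 94.8, and for Ldha and Gapdh. Grey probes show smaller drops, of at most 0.32 log2 units below control-siRNA array 3, or none.

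Genes with several probes showed how far 1 probe stands for a gene. Of the 32 genes, 21 had 1 kept probe and 11 had 2 to 8. Averaged LPS changes of the 8 Gapdh probes ran from 0.04 to 0.27, those of the 3 Ldha probes from 0.01 to 0.30 and those of the 3 Hk1 probes from -0.20 to 0.61. The 3 Gpi1 probes ran from 0.00 to 0.05 and the pairs of probes of Slc16a3, Pfkfb3 and P4ha1 kept 1 sign, whereas the pair of Vegfa probes gave -0.02 and 0.09. Ankrd37 and Ddit4 each had a single probe, as did Adm, and the second Pfkfb4 probe was well above background on 1 array, so a second probe could not check these calls.

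Beyond the 33 genes, 67 further genes of glucose transport, glycolysis, pyruvate oxidation and the response to hypoxia were on the array, and 56 of them were tested. With LPS averaged over both siRNAs 3 rose, 3 fell and 50 did not pass, with a median of -0.11, against 4.17% of all features higher and 4.12% lower. Edn1, the vasoconstrictor endothelin 1, rose most, by 3.82. It was at 0.645 ± 0.077 in lincRNA-siRNA cells with LPS, against 0.0402 ± 0.0025 without. In control-siRNA cells it was at 0.640 ± 0.119 with LPS, against 0.0511 ± 0.0061 without (SD, n = 3). In each group without LPS only 2 of the 3 Edn1 arrays were well above background. Edn1 thus passed the filter on dim signal through the groups with LPS alone. That filter favours a rise, so nothing is drawn from its test, although Edn1 is among the genes counted as higher here and under each siRNA. Bhlhe40, a transcriptional repressor, rose by 0.38 (adjusted p = 0.0407). Pfkfb2, another gene of the Pfkfb family, fell by 0.85 (adjusted p = 0.00605), Slc2a8, an intracellular sugar transporter, by 0.41 (adjusted p = 0.0150) and Kdm3a, a histone demethylase, by 0.31 (adjusted p = 0.0267). In lincRNA-siRNA cells 2 of the 56 rose and 0 fell with LPS, against 1.48% and 0.339% of features. In control-siRNA cells 2 rose and 1 fell, against 3.24% and 2.03%. The lincRNA siRNA called 0 of the 56 in either LPS state, against 0% of features.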

How the data were processed

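Labelled RNA (Cy3) from 12 samples was hybridised to 1-colour Agilent arrays, 3 per group, per the labels' protocols. The deposited files hold spot intensity from Agilent Feature Extraction 10.7.1.1, background-subtracted within the array, and spot flags (another kind of value), per the file headers. The authors' deposited table of log2 values, whose array medians all round to 4.756 and whose ranks match the scanner signal, served as an alternative. How that table was normalized is not given in sources used here. Each processed signal was put on a log2 scale, outlier spots were dropped, spots of a probe averaged, and the 75th percentile of the array subtracted. Probes well above background on all 3 arrays of a group were kept, the brightest per gene, 23924 features. limma 3.58.1 in R 4.3.3 fitted 4 group means, with Benjamini-Hochberg adjustment over all features at 0.05. The code was tested on simulated data. Alternatives covered filter, background, normalization, slide, replicate block and left-out arrays. Every gene of the set was named, with per-array values for genes that passed and for 8 fixed ones. Members, lists and motifs were chosen with earlier results of these data known. The number of arrays limits the precision. One gene of the wider list is not reported here.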

Additional observations from a re-analysis of the deposited data

How the results depend on the processing

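The results were recomputed under 23 alternatives, and the cause of the differences was not tested. With slide as a block, features called numbered 234 (200 higher, 34 lower) for LPS in control-siRNA cells, 161 (147 higher, 14 lower) in lincRNA-siRNA cells, 536 (424 higher, 112 lower) averaged, 2 for the lincRNA siRNA with LPS and 1 without LPS. Within slide 2 alone they numbered 51, 52 and 272 for the 3 LPS comparisons. With the block, 0 genes of the set were called for LPS, against 1 in control-siRNA cells and 3 averaged without it. The block and the slide 2 fit both take their group differences from the arrays of slide 2, so they are not separate checks. Without both arrays of slide 1, an alternative chosen after seeing the data, 201 features passed in control-siRNA cells, 690 averaged and 4 for the lincRNA siRNA without LPS, with 0 genes of the set. Without the filter on dim probes 716 features passed in control-siRNA cells and 1234 averaged, with 1 gene of the set for the average. For the lincRNA siRNA without LPS, normexp background correction called 3 features and the mean of all kept probes of a gene 2.

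Leaving out 1 array at a time gave 522 to 3867 features and 0 to 6 genes of the set for LPS in control-siRNA cells, 243 to 449 features and 0 to 0 genes in lincRNA-siRNA cells, and 1195 to 3552 features and 1 to 6 genes averaged. It gave 0 to 2355 features and 0 to 6 genes for the lincRNA siRNA without LPS, and 0 to 316 features and 0 to 1 gene for the difference in LPS response. For the lincRNA siRNA with LPS it gave 0 features throughout. The highest counts came without control-siRNA array 3 for LPS in control-siRNA cells, LPS averaged, the lincRNA siRNA without LPS and the difference in response. Leaving out control-siRNA array 1 or 2, or control-siRNA array 2 or 3 with LPS, gave 580, 540, 577 and 522 features for LPS in control-siRNA cells and 1270, 1248, 1277 and 1195 averaged. Leaving out lincRNA-siRNA array 1 or 2 with LPS gave 283 and 243 features for LPS in lincRNA-siRNA cells, and leaving out lincRNA-siRNA array 1 or 3 gave 128 and 8 for the lincRNA siRNA without LPS. Without lincRNA-siRNA array 2 or lincRNA-siRNA array 2 with LPS, only 1 gene of the set passed averaged. Ankrd37 averaged passed in 20 of 23 alternatives (-0.98 to -0.78) and in control-siRNA cells in 16; Pfkfb4 passed in 14 (-0.33 to -0.22) and Ddit4 in 13 (-1.03 to -0.69). None of them changed sign.

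Whether replicate numbers pair the arrays cannot be settled from correlations of deviations from group means. Same-numbered arrays of different groups correlated at -0.30 to 0.47, with 8 of 18 pairs over 0.1. Differently numbered arrays correlated at -0.47 to 0.47, with 14 of 36 pairs over 0.1. Of the 12 arrays, 5 correlated best with their own number. With the replicate block, 2402 features passed averaged, 1615 in control-siRNA cells and 391 in lincRNA-siRNA cells, with 3, 1 and 1 genes of the set. Without it these were 1984, 1260 and 435 features, with 3, 1 and 0 genes of the set.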
